A study of Mus musculus with 6 samples.

Results

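The 10 genes described here, Lgr5, Olfm4, Smoc2, Ascl2, Axin2, Lgr4, Rnf43, Znrf3, Tnfrsf19 and Sox9, mark or act in the stem cells at the base of the intestinal crypt. They were chosen by name, out of 55416 gene identifiers in the tables, with no threshold on their measured values but with earlier results of these data known. Counts of these genes set beside all genes therefore describe the list and do not test it. All 10 passed the filter on low counts that left 16975 genes for testing, with at least 49 counts in every library. RNA-seq was done on organoids of the small intestine, which are gel-embedded cultures of epithelium, here from mice aged 4 to 8 weeks and homozygous (Tg/Tg) both for Rosa26-rtTA and for Col1A1-TetO-OSKM. In these mice the rtTA transactivator, made from the broadly active Rosa26 locus, switches on Oct4 (Pou5f1), Sox2, Klf4 and Myc from a cassette at Col1a1 when doxycycline is given. Control organoids carried the same transgenes and received no doxycycline, while the drug was given over 3 days at a low dose (0.1 µg/ml) or a high dose (0.5 µg/ml). There were 3 groups with 2 libraries each, called biological replicates by the series but not tied to separate mice or organoid lines, so p values measure the spread between these libraries. Among the groups analysed here none received doxycycline without the cassette, so the drug and the factors cannot be told apart.

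Crypt base stem cells divide throughout life and give rise to every cell type of the intestinal lining. They are kept by Wnt signalling, which stabilises beta-catenin and turns on target genes through TCF/LEF factors. R-spondins amplify the signal: they bind Lgr4 and Lgr5 and thereby clear the ubiquitin ligases Rnf43 and Znrf3, which otherwise remove the Frizzled receptors of Wnt from the cell surface. Lgr5, Axin2, Rnf43, Znrf3, Ascl2, Sox9 and Tnfrsf19 are themselves known as Wnt targets in the intestine, so the list holds receptors, brakes and readouts of one pathway.

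At the high dose 8 of the 10 genes were lower than in control, 1 was higher and 1 did not pass the test (two-sided quasi-likelihood test of edgeR with p values adjusted after Benjamini and Hochberg over all tested genes, called at 0.05). Of all tested genes 33.1% were lower and 34.4% higher in that comparison. Against control 7 were lower at the low dose, 1 was higher and 2 did not pass, against 13.8% of all genes lower and 20.8% higher. Between the doses 7 were lower at the high dose, 1 was higher and 2 did not pass, against 29.1% of all genes lower and 29.8% higher. The median log2 fold change of the 10 genes was -0.57 at the low dose and -1.06 at the high dose against control and -0.62 between the doses, whereas that of all tested genes was 0.02, -0.004 and -0.02. The libraries of the 2 groups did not overlap, with the more strongly treated ones lower, for 8 genes at each dose against control and for 8 between the doses, against 30.8%, 42.1% and 41.2% of all tested genes. Lgr5, Olfm4, Smoc2, Axin2, Rnf43, Tnfrsf19 and Sox9 stood in the order control, low dose, high dose with no overlap at either step, as did 20.1% of all genes, and all of these 7 but Tnfrsf19 passed the test at both steps, as did 9.32% of all genes. The fall was uneven: Lgr5, Olfm4 and Smoc2 kept 5.73% to 10.1% of their mean control level at the high dose, Axin2, Rnf43, Sox9 and Tnfrsf19 kept 37.4% to 53.0%, and Ascl2, Lgr4 and Znrf3 did not follow. Since these are whole organoids, fewer stem cells and less RNA per stem cell cannot be told apart.

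**Figure D1:**
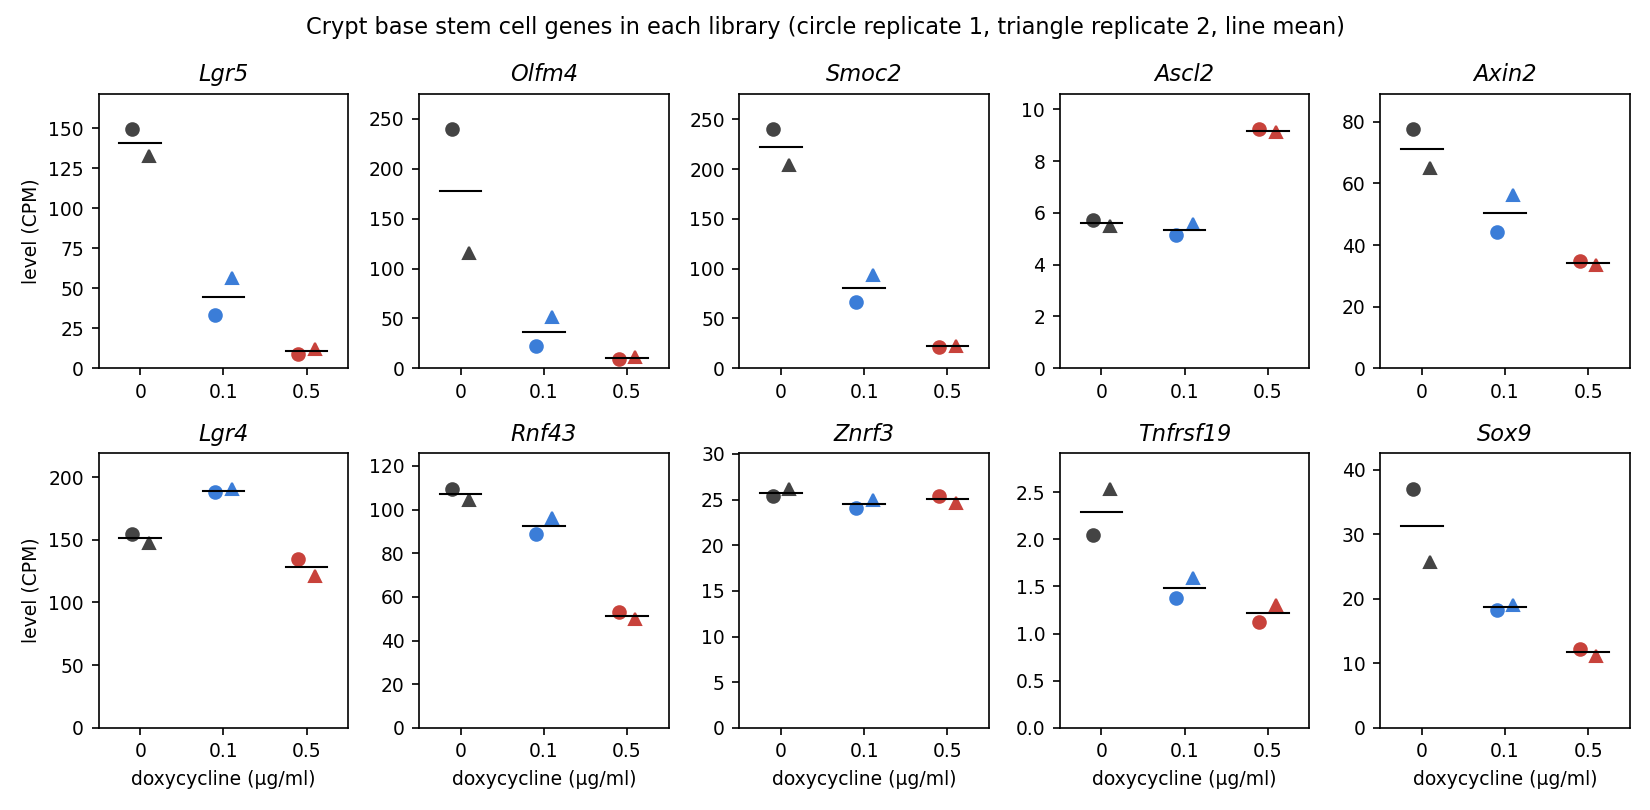
Level of each of the 10 genes in counts per 1e+06 (CPM, vertical axes from 0) in the 6 libraries against the doxycycline concentration in µg/ml; circles and triangles are replicates 1 and 2 and the lines are group means. Lgr5, Olfm4 and Smoc2 drop to 10.6, 10.2 and 22.3 CPM at the high dose, Znrf3 stays between 24.0 and 26.2 CPM, Lgr4 is highest at the low dose and Ascl2 at the high dose.

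In units of 1e+06, 45.3 to 72.5 counts were held by a library, the most in replicate 1 at the low dose. The induction followed the labels, with Pou5f1 at 0.140 to 0.243 CPM in control, 136 and 141 CPM in the low dose libraries and 486 and 512 CPM in the high dose libraries. CPM are counts per 1e+06 of a library size corrected by TMM factors. Markers of other tissue layers were low: over 7 fibroblast, 5 immune and 4 endothelial genes the summed level lay between 0.815 and 3.01, 1.07 and 2.31, and 0.379 and 4.15 CPM per library. Of these lists Adgre1 and Cdh5 had no count in any library, Cd3e, Col3a1 and Kdr had 1 count in all, and the highest level was 4.01 CPM for Tek. Of the 2 fibroblast genes tested 1 was higher and 1 lower at the high dose than in control, as were 1 and 1 of 2 immune genes, and the 1 endothelial gene tested was higher. Dcn rose from no count in control to 65 and 108 counts at the high dose and Ptprc from none to 13 and 14 counts. Tek rose from a mean of 0.171 to 3.63 CPM, while Pdgfrb fell from 1.09 to 0.233 CPM and Itgam from 2.17 to 0.861 CPM. Among all tested genes 34.4% were higher and 33.1% lower in that comparison. The part of these markers in the results was not tested.

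Promoters of 6 of the 10 genes were in the RefSeq table of GRCm38.p6, each reaching from 250 bases before to 50 bases after a start site, while Lgr5, Smoc2, Znrf3 and Sox9 are named only. The letters CTTTGA of TCF/LEF factors, CACGTG of Myc (the E-box), CCACCC of Klf factors and ATGCAAAT of Oct4 (the octamer) were searched on both strands, and matches are in capitals. Olfm4 is shown as the gene with the largest fall, Axin2 as a Wnt readout that fell at each dose, Ascl2 as the gene that rose, and Lgr4 as the gene that was highest at the low dose.
Olfm4, chr14:80000052-80000351, plus strand: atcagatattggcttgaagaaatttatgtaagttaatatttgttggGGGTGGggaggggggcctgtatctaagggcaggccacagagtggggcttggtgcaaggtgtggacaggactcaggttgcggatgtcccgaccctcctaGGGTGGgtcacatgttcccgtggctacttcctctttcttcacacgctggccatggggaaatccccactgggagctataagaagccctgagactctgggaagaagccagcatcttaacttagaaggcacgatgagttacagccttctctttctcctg
Axin2, chr11:108920099-108920398, plus strand: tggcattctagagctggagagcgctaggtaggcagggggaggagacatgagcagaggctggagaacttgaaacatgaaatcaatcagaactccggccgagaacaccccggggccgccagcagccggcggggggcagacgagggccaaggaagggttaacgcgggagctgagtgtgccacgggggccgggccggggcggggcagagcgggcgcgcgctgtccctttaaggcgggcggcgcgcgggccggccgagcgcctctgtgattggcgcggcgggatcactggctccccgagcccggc
Ascl2, chr7:142969215-142969514, minus strand: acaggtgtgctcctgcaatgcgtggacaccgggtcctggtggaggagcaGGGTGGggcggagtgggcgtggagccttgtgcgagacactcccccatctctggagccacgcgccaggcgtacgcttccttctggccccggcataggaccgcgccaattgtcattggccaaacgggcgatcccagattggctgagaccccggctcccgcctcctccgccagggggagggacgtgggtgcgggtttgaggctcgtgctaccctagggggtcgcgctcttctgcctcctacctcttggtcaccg
Lgr4, chr2:109917397-109917696, plus strand: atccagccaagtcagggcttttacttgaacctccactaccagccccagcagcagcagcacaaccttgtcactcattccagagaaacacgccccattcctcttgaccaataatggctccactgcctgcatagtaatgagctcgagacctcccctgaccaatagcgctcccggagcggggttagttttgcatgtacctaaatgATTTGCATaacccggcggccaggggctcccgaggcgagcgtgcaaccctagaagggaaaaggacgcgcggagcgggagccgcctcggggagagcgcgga
The Olfm4 window held 2 matches to the Klf letters, 204 and 106 bases before the start site, and the Ascl2 window held 1, 201 bases before it. The Lgr4 window held 1 match to the octamer, 49 bases before the start site, and the Axin2 window held no match to any of the 4 motifs. Both Rnf43 windows also had no match. Of the 2 Tnfrsf19 windows, the first held 2 matches to the Klf letters and the second held 1 match each to the TCF/LEF, E-box and Klf letters. Over all 32841 windows of that length, 16% held CTTTGA, 7.15% CACGTG, 31.5% CCACCC and 1.74% ATGCAAAT. No matches overlapped each other in the printed windows, and a match is no evidence of binding.

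Lgr5, Olfm4 and Smoc2, whose expression within the epithelium is concentrated in the crypt base stem cells, fell at each dose step. Lgr5 (ENSMUSG00000020140) encodes the R-spondin receptor by which these cells were first traced, Olfm4 (ENSMUSG00000022026) a secreted glycoprotein, and Smoc2 (ENSMUSG00000023886) a secreted calcium-binding matrix protein. Lgr5 stood at 149 and 133 CPM in the control libraries, 33.4 and 56.1 CPM at the low dose and 9.003 and 12.2 CPM at the high dose, replicate 1 first. No library overlapped with those of another group. The fall from control was 3.17-fold at the low dose (log2 fold change -1.67, SE 0.20, edgeR adjusted p = 1.56e-04) and 13.2-fold at the high dose (log2 fold change -3.72, SE 0.23, adjusted p = 3.42e-07). Between the doses it fell a further 4.15-fold (adjusted p = 4.05e-05).

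Olfm4 had the widest spread of the 10 genes. It stood at 239.6 and 116 CPM in control, 22.2 and 51.2 CPM at the low dose and 9.37 and 10.99 CPM at the high dose, so that its replicates differed 2.07-fold in control and 2.31-fold at the low dose. The groups still did not overlap. It fell 4.92-fold at the low dose (edgeR adjusted p = 0.00133) and 17.4-fold at the high dose (adjusted p = 1.89e-05), and 3.53-fold between the doses (adjusted p = 0.00552). How large the fall was depended on which library was kept. Without replicate 1 of control the log2 fold change was -1.70 at the low dose and -3.50 at the high dose, against -2.30 and -4.12 with all libraries. Without replicate 2 at the low dose it was -3.03 at the low dose against control and -1.12 between the doses, against -1.82 with all libraries. Both steps missed the threshold with limma on log2(TPM + 1) when genes of every level were kept (adjusted p = 0.0703 and 0.0907).

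Smoc2 was the highest of the 10 genes per transcript length in control. It stood at 239.9 and 204 CPM in control, 66.3 and 93.9 CPM at the low dose and 21.8 and 22.8 CPM at the high dose. The groups did not overlap, and the replicates at the high dose nearly coincided. It fell 2.78-fold at the low dose (edgeR adjusted p = 3.03e-05), 9.92-fold at the high dose (adjusted p = 4.19e-08) and 3.57-fold between the doses (adjusted p = 4.41e-06). Among all tested genes 0.271% had a lower log2 fold change than Olfm4 at the high dose, 0.454% a lower one than Lgr5 and 0.772% a lower one than Smoc2.

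The R-spondin receptors Lgr5 and Lgr4 parted. Lgr4 (ENSMUSG00000050199), which is expressed through the crypt and beyond the stem cells, stood at 155 and 148 CPM in control, 188 and 191 CPM at the low dose and 135 and 121 CPM at the high dose. Both libraries at the low dose lay above all others, and both at the high dose lay below all others. It rose 1.25-fold at the low dose (log2 fold change 0.32, SE 0.05, edgeR adjusted p = 0.00145), and was 1.18-fold lower at the high dose than in control (log2 fold change -0.24, SE 0.06, adjusted p = 0.00341) and 1.48-fold lower than at the low dose (adjusted p = 1.64e-05). On the TPM scale, which is per transcript length, the ratio of Lgr5 to Lgr4 was 1.13 and 1.07 in the control libraries, 0.207 and 0.352 at the low dose and 0.0756 and 0.113 at the high dose. The receptors were thus at like levels in control, whereas Lgr4 exceeded Lgr5 in each treated library. Lgr6, the remaining receptor of the family, did not pass the filter, with 8 counts over the 6 libraries. Rspo1, Rspo2 and Rspo3 had no count in any library, which allows up to 0.0414 to 0.0687 CPM (3 counts per library, counting error only). Rspo4, the 1 tested gene among the R-spondins and Lgr6, held 52 counts over all libraries and was lower at the high dose than in control (adjusted p = 0.00558), at 0.0498 ± 0.0381 against 0.291 ± 0.0679 CPM (SD, n = 2), and did not pass at the low dose or between the doses.

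The ubiquitin ligases Rnf43 and Znrf3, which act alike on Frizzled, also parted. Rnf43 (ENSMUSG00000034177) stood at 109 and 104 CPM in control, 88.7 and 96.0 CPM at the low dose and 53.0 and 49.8 CPM at the high dose, with no overlap between groups. It fell 2.08-fold at the high dose (log2 fold change -1.06, SE 0.06, edgeR adjusted p = 1.16e-07) and 1.80-fold between the doses (adjusted p = 1.11e-06). The first step, to the low dose, was a fall of 1.16-fold (adjusted p = 0.0137). That small step missed the threshold without replicate 1 of control (adjusted p = 0.0552), without replicate 1 at the low dose (adjusted p = 0.0952) and with limma on log2(TPM + 1) over genes of every level (adjusted p = 0.0790). A sense intronic transcript, 1110028F11Rik, lies within Rnf43 in GENCODE M21 and reached 5.48 TPM in a library. Only gene spans were compared, and whether its reads entered the Rnf43 count was not tested.

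Znrf3 (ENSMUSG00000041961) stood at 25.4 and 26.2 CPM in control, 24.0 and 25.0 CPM at the low dose and 25.4 and 24.6 CPM at the high dose. It passed the test in none of the comparisons (edgeR adjusted p = 0.317, 0.511 and 0.628). Its 95% interval for the log2 fold change at the high dose against control ran from -0.16 to 0.08, at the low dose from -0.20 to 0.05 and between the doses from -0.09 to 0.15. The direction between the doses was not settled, at 0.03 with TMM scaling and -0.02 with upper quartile scaling. The intervals hold no fall as large as that of Rnf43 at the high dose. The ratio of Rnf43 to Znrf3 on the TPM scale was 6.77 and 6.17 in control, 5.72 and 6.05 at the low dose and 3.25 and 3.20 at the high dose.

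Axin2 (ENSMUSG00000000142), a scaffold of the complex that destroys beta-catenin and a widely used readout of Wnt signalling, fell in small and like steps. It stood at 77.5 and 64.9 CPM in control, 44.1 and 56.4 CPM at the low dose and 34.8 and 33.4 CPM at the high dose, with no overlap between groups. The fall was 1.42-fold at the low dose (log2 fold change -0.51, SE 0.11, edgeR adjusted p = 0.00590) and 2.09-fold at the high dose (log2 fold change -1.06, SE 0.11, adjusted p = 1.98e-05), and 1.47-fold between the doses (adjusted p = 0.00223). Each single step missed the threshold with limma on log2(TPM + 1) over genes of every level (adjusted p = 0.128 and 0.0546). At the high dose Axin2 kept 47.9% of its mean control level in CPM and Rnf43 48.1%, whereas Lgr5 kept 7.53%, Olfm4 5.73% and Smoc2 10.1%.

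Tnfrsf19 (ENSMUSG00000060548), a receptor of the tumour necrosis factor family also called Troy that dampens Wnt signalling in stem cells, was the lowest of the 10 genes. It held 101 and 127 counts in control, 100 and 78 at the low dose and 49 and 68 at the high dose, or 2.05 and 2.53, 1.38 and 1.59, and 1.12 and 1.304 CPM. The groups did not overlap, by a narrow margin between the doses. It was 1.88-fold lower at the high dose than in control (log2 fold change -0.91, SE 0.20, edgeR adjusted p = 0.00264) and did not pass between the doses (adjusted p = 0.277; 95% interval -0.74 to 0.19). The fall at the low dose, 1.55-fold (adjusted p = 0.0294), missed the threshold with DESeq2 (adjusted p = 0.104), with limma on log2(TPM + 1) over genes of every level (0.0634), without replicate 2 of control (0.133) and without replicate 1 at the low dose (0.168).

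The transcription factors Sox9 and Ascl2 moved in opposite directions. Sox9 (ENSMUSG00000000567), an HMG-box factor of stem, Paneth and enteroendocrine cells, stood at 37.0 and 25.6 CPM in control, 18.3 and 19.1 CPM at the low dose and 12.2 and 11.2 CPM at the high dose. The control libraries differed 1.44-fold, and both lay above all treated libraries. It fell 1.68-fold at the low dose (edgeR adjusted p = 0.00263), 2.68-fold at the high dose (adjusted p = 1.63e-05) and 1.595-fold between the doses (adjusted p = 0.00351). Without replicate 1 of control the log2 fold change at the low dose was -0.47, against -0.75 with all libraries. Each single step missed the threshold with limma on log2(TPM + 1) over genes of every level (adjusted p = 0.0808 and 0.0551).

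Ascl2 (ENSMUSG00000009248), a basic helix-loop-helix factor needed for the crypt base stem cell programme, rose. It stood at 5.71 and 5.49 CPM in control, 5.14 and 5.57 CPM at the low dose and 9.23 and 9.13 CPM at the high dose. The libraries of control and the low dose overlapped, and both libraries at the high dose lay above them. The rise was 1.64-fold over control (log2 fold change 0.71, SE 0.10, edgeR adjusted p = 1.20e-04) and 1.72-fold over the low dose (log2 fold change 0.78, SE 0.10, adjusted p = 8.63e-05). At the low dose against control it did not pass (adjusted p = 0.646; 95% interval -0.29 to 0.16). Of all tested genes 80.3% had a lower log2 fold change than Ascl2 at the high dose against control. The level was low, from 273 to 476 counts per library.

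**Figure D2:**
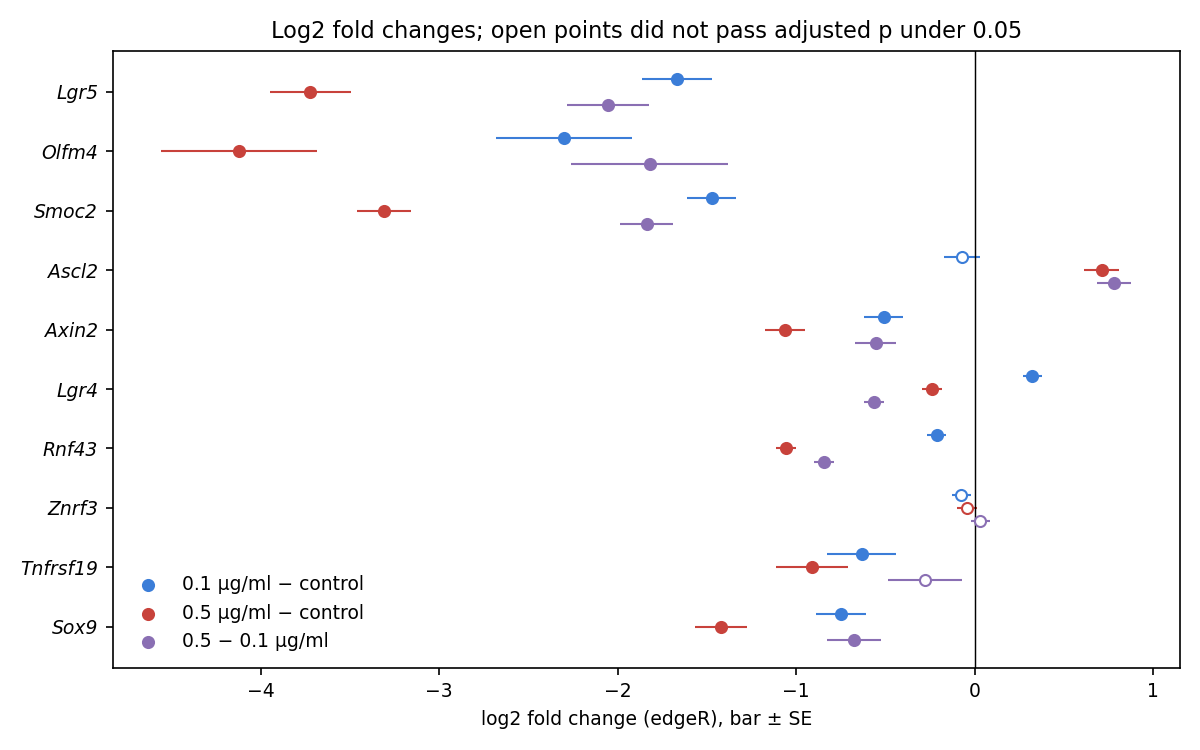
Log2 fold change of each gene (horizontal axis, edgeR, bars ± SE) at the low (0.1 µg/ml) and high (0.5 µg/ml) dose against control and between the doses; open points did not pass an adjusted p under 0.05. Olfm4, Lgr5 and Smoc2 reach -4.12, -3.72 and -3.31 at the high dose, Znrf3 is open in all 3 comparisons, Lgr4 is above 0 at the low dose only and Ascl2 is above 0 at the high dose.

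The order of the genes per transcript length changed with dose. In control the highest were Smoc2 at 105 ± 10.9 TPM and Olfm4 at 78.6 ± 37.2 TPM (SD, n = 2), which do not differ beyond their spread. Lgr5 at 39.8 ± 2.001, Lgr4 at 36.2 ± 0.318, Rnf43 at 35.1 ± 0.552 and Axin2 at 28.4 ± 4.22 TPM followed. The order ended with Sox9 at 9.16 ± 2.16, Znrf3 at 5.44 ± 0.269, Ascl2 at 4.74 ± 0.0636 and Tnfrsf19 at 0.795 ± 0.106 TPM. Lgr4 led at the low dose at 44.4 ± 0.940 TPM, ahead of Smoc2 at 36.8 ± 10.5 TPM within the spread of the latter. Rnf43 stood at 30.2 ± 1.89, Axin2 at 19.6 ± 3.32, Olfm4 at 15.9 ± 9.07 and Lgr5 at 12.5 ± 4.80 TPM, of which the last 3 overlapped within their spread. At the high dose the order was Lgr4 at 29.1 ± 1.53, Rnf43 at 16.1 ± 0.0212, Axin2 at 12.9 ± 0.205, Smoc2 at 9.84 ± 0.933 and Ascl2 at 7.16 ± 0.134 TPM. Lgr5 had passed from the third to the ninth place, at 2.72 ± 0.615 TPM, next to Sox9 at 3.20 ± 0.127 TPM and within its own spread of it, after Znrf3 at 5.01 ± 0.0566 and Olfm4 at 4.23 ± 0.573 TPM. The summed TPM of the 10 genes was 383 and 303 in the control libraries, 153 and 197 at the low dose and 89.9 and 91.2 at the high dose.

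The widest gaps between replicates were those of Olfm4 and Lgr5. At the low dose replicate 2 exceeded replicate 1 in all 10 genes, while 49.2% of 12991 genes of at least 1 CPM did so. The gap on the log2 scale was 1.21 for Olfm4, 0.75 for Lgr5 and 0.50 for Smoc2, each beyond the 0.37 that holds 95% of genes. In control the gaps of Olfm4, 1.05, and Sox9, 0.53, exceeded the 0.47 that holds 95% of genes, both with replicate 1 higher. At the high dose Lgr5 alone exceeded it, at 0.44 against 0.34 and with replicate 2 higher. The summed level of 10 Paneth cell genes moved with the stem cell genes at the low dose, at 378 CPM in replicate 1 and 500.4 CPM in replicate 2, and that of 10 absorptive cell genes moved the other way, at 3481 and 2653 CPM. Of the factor genes, Pou5f1 at 136 and 141 CPM, Sox2 at 83.3 and 86.3 CPM and Myc at 240.2 and 259 CPM were also higher in replicate 2 there. Klf4 hardly differed, at 223.4 and 223.6 CPM. At the high dose all 4 factor genes were again higher in replicate 2, with Sox2 at 294 and 325 CPM and Myc at 791 and 878 CPM. Of the 10 genes, however, 6 were higher in replicate 1 at that dose. Whether the makeup of the cultures or the level of the factors set these gaps was not tested.

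**Figure D3:**
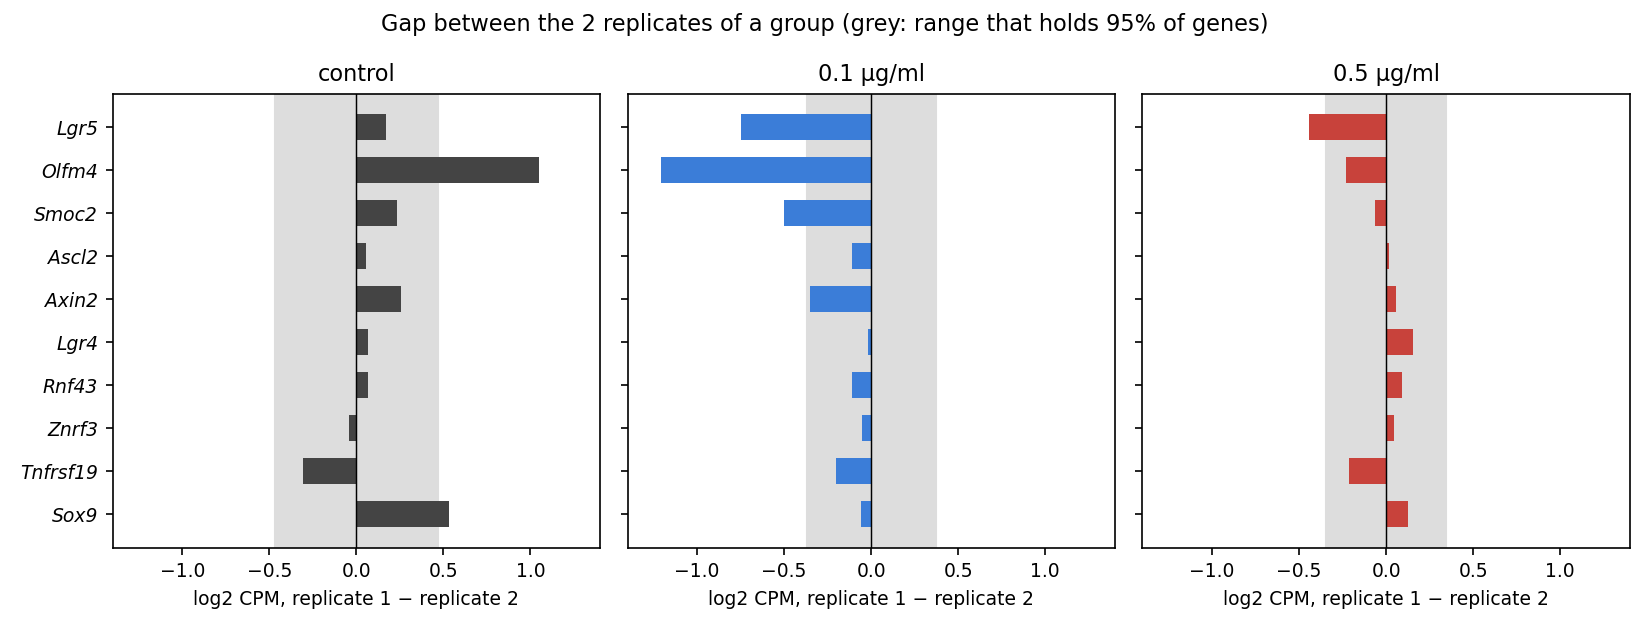
Difference in log2 CPM between replicate 1 and replicate 2 (horizontal axis) for each gene in control and at either dose; the grey band holds 95% of 12991 genes. At the low dose the bars of all 10 genes point to replicate 2, and those of Olfm4, Lgr5 and Smoc2 leave the band.

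The other genes named for the crypt base fell as well. Of 26 tested genes, out of 28 listed, 22 were lower, 3 higher and 1 did not pass at the high dose against control, with a median log2 fold change of -1.30. The low dose had 18 lower and 3 higher, and between the doses 19 were lower and 4 higher. Of all tested genes 33.1% were lower and 34.4% higher at the high dose. The shares were 13.8% and 20.8% at the low dose and 29.1% and 29.8% between the doses. The nuclear receptor gene Esrrg went from 19.98 ± 1.0004 CPM in control to 7.89 ± 1.302 and 3.07 ± 0.102 CPM, and the water channel gene Aqp4 from 172 ± 4.62 to 77.5 ± 1.63 and 26.6 ± 1.07 CPM (SD, n = 2). Phlda1 rose from 48.4 ± 9.36 to 236 ± 3.26 CPM at the high dose and Arid5b from 58.2 ± 0.750 to 120.0 ± 6.17 CPM. Among 4 genes of slow-cycling stem cells 3 were lower at the high dose, 2 at the low dose and 3 between the doses. In each comparison 0 were higher. The Polycomb gene Bmi1 fell from 48.2 ± 0.499 to 24.8 ± 2.01 CPM and Lrig1, an inhibitor of ErbB receptors, from 197 ± 13.5 to 102 ± 4.29 CPM, while Hopx, named after its values were seen, stood at 137 ± 2.06 and 138 ± 1.28 CPM and did not pass. The lists share no gene with the 10.

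Wnt target genes outside the crypt base list did not fall together. Of 11 tested, out of 15 listed, 6 were higher, 2 lower and 3 did not pass at the high dose, with a median log2 fold change of 0.47. The cyclin gene Ccnd1 rose 5.78-fold from 77.6 ± 2.59 to 448 ± 11.2 CPM and the Wnt inhibitor gene Apcdd1 4.57-fold from 4.26 ± 0.104 to 19.5 ± 2.77 CPM, while Ephb2, a guidance receptor that positions cells in the crypt, fell by 0.46 on the log2 scale. In the low dose 4 were higher and 3 lower, and between the doses 8 were higher and 2 lower. Of 20 tested genes of Wnt signal transduction, out of 23 listed, 4 were higher, 7 lower and 9 did not pass at the high dose, against 34.4% higher and 33.1% lower of all tested genes, with a median log2 fold change of -0.07 and a range from -1.01 to 0.69. At the low dose 3 were higher and 3 lower, near the shares of all genes given above. Between the doses 4 were higher and 8 lower. The co-receptor gene Lrp5 was up 1.61-fold and Dvl1 1.35-fold, while the TCF factor gene Tcf7 and the beta-catenin partner gene Bcl9 fell with log2 fold changes of -1.01 and -0.66 at the high dose. Ctnnb1, which encodes beta-catenin, stood at 596 ± 19.7 CPM in control and 520 ± 6.93 CPM at the high dose (log2 fold change -0.20, edgeR adjusted p = 0.00128). Ctnnb1 was named after its values were seen.

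**Figure D4:**
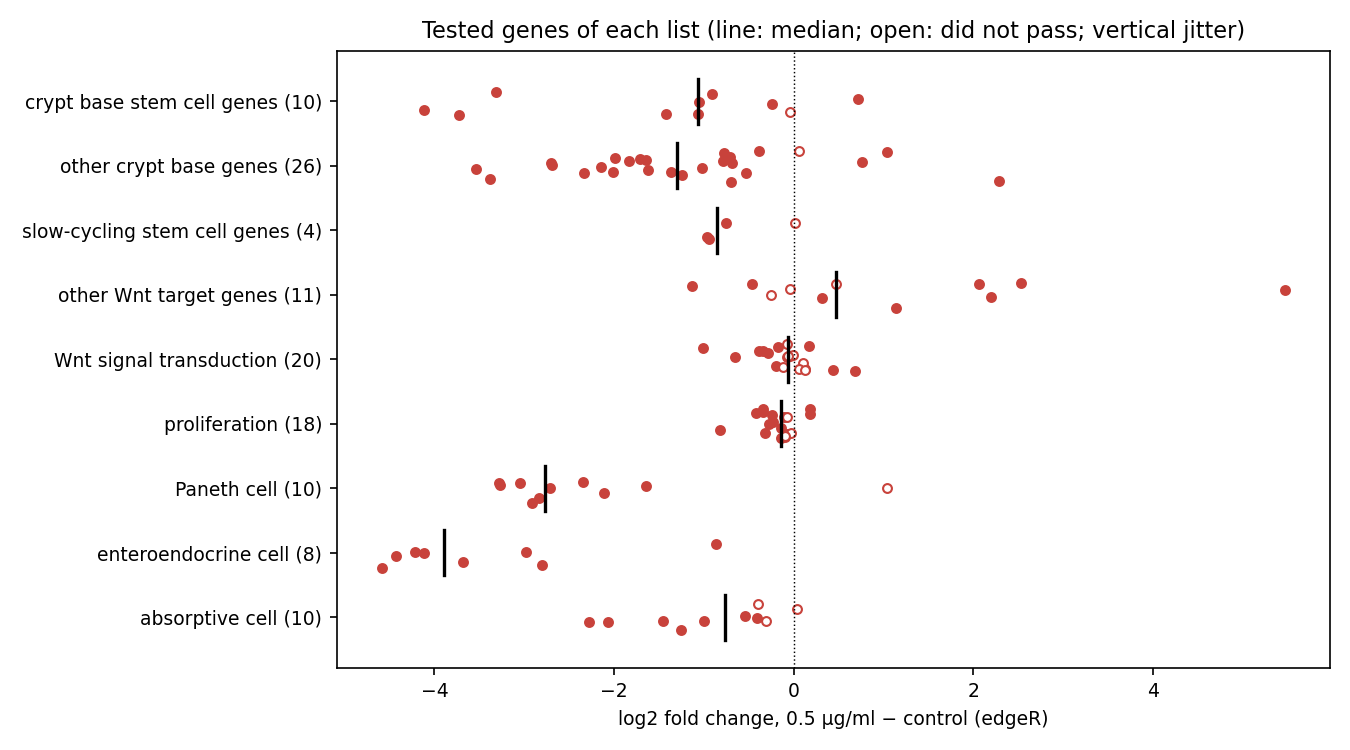
Log2 fold change at the high dose against control (horizontal axis, edgeR) of every tested gene of 9 lists, the number tested in brackets; bars are medians and open points did not pass an adjusted p under 0.05, with vertical position within a row random. The medians are -1.06 for the 10 crypt base stem cell genes, -1.30 for other crypt base genes, 0.47 for other Wnt targets, -0.07 for Wnt signal transduction and -2.77 for Paneth cell genes.

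Of 18 tested proliferation genes, 10 were lower, 2 higher and 6 did not pass at the high dose, with log2 fold changes from -0.82 to 0.18. Of all tested genes 33.1% were lower and 34.4% higher there. In the low dose 3 were lower and 0 higher, against 13.8% and 20.8% of all tested genes. The share lower at the low dose was thus near that of all genes. Between the doses 9 were lower and 2 higher, against 29.1% and 29.8% of all tested genes. Mki67 went from 670 ± 12.1 CPM in control to 605 ± 16.1 and 531 ± 3.53 CPM and was named after its values were seen. The cyclin B2 gene Ccnb2 and the cell cycle kinase gene Cdk1 fell with log2 fold changes of -0.82 and -0.42 at the high dose, and Aurka and Pcna rose 1.14-fold and 1.13-fold. The summed level of the 18 genes was 2787 ± 22.5 CPM in control, 2668 ± 102 CPM at the low dose and 2448 ± 2.06 CPM at the high dose, whereas Lgr5 kept 31.8% and 7.53% of its mean control level.

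Among markers of other epithelial cells, the Paneth and enteroendocrine lists moved with the stem cell genes, whereas the absorptive and tuft lists did not share their order, and their part in the results was not tested. The counts that follow stand beside 13.8% of all tested genes lower and 20.8% higher at the low dose. At the high dose 33.1% were lower and 34.4% higher, and between the doses 29.1% and 29.8%. Paneth cells neighbour the stem cells and supply them with signals. Of 10 Paneth cell genes 9 were lower and 0 higher in each comparison, and their summed level was 1290.4 ± 109.6 CPM in control, 439 ± 86.6 CPM at the low dose and 151 ± 6.02 CPM at the high dose. The defensins Defa24 and Defa17, whose near-identical copies share reads, fell with log2 fold changes of -3.29 and -3.27 at the high dose. Wnt3, the Wnt ligand of Paneth cells, stood at 4.45 CPM in control and 0.679 CPM at the high dose and was named after its values were seen. Of 8 enteroendocrine genes 8 were lower at each dose than in control and 7 were lower between the doses, with summed levels of 373 ± 61.1, 122 ± 10.2 and 29.4 ± 2.48 CPM. Tph1, which makes the precursor of serotonin, and Tac1 fell with log2 fold changes of -4.59 and -4.43 at the high dose. Of 10 absorptive cell genes tested, 5 were higher and 2 lower at the low dose, 0 higher and 7 lower at the high dose, and 10 lower between the doses, with summed levels of 2067 ± 265 CPM in control, 3067 ± 585 CPM at the low dose and 1297 ± 18.7 CPM at the high dose. The peptidase genes Anpep and Dpp4 fell with log2 fold changes of -2.27 and -2.07 at the high dose. Of 4 tested tuft cell genes 3 were higher and 1 lower in each comparison. The 6 listed summed to 4.13 ± 0.938, 147 ± 0.374 and 415 ± 5.79 CPM in the order of dose. Most of this sum in the treated groups was Avil alone, at 141 CPM at the low dose and 399.7 CPM at the high dose. Avil was up 305-fold and Dclk1 up 42.6-fold at the high dose, while Trpm5 fell from 1.06 ± 0.148 CPM in control to 0.183 ± 0.0953 CPM. Gfi1b and Il25 were not tested, with at most 3 and 1 counts in a library. Trpm5, Gfi1b and Il25 were named after their values were seen. General genes of intestinal epithelium moved in both directions. The 9 listed summed to 4691 ± 73.8, 5617 ± 113 and 7369.7 ± 40.8 CPM. The keratin gene Krt8, from 1144 ± 45.8 to 3102 ± 26.4 CPM, and Krt19, from 843 ± 1.49 to 1648 ± 7.28 CPM, rose at the high dose, while the adhesion gene Epcam fell from 784 ± 4.44 to 588 ± 10.6 CPM and Krt18 from 368 ± 29.1 to 201 ± 1.91 CPM. Krt19, Epcam and Krt18 were named after their values were seen. Of these 9 genes 5 were higher and 4 lower at the high dose, 4 and 4 at the low dose and 4 and 4 between the doses. Krt20 and Krt8 were up 3.34-fold and 2.71-fold at the high dose and the intestinal identity genes Cdx2 and Cdx1 fell with log2 fold changes of -1.6004 and -1.56.

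**Figure D5:**
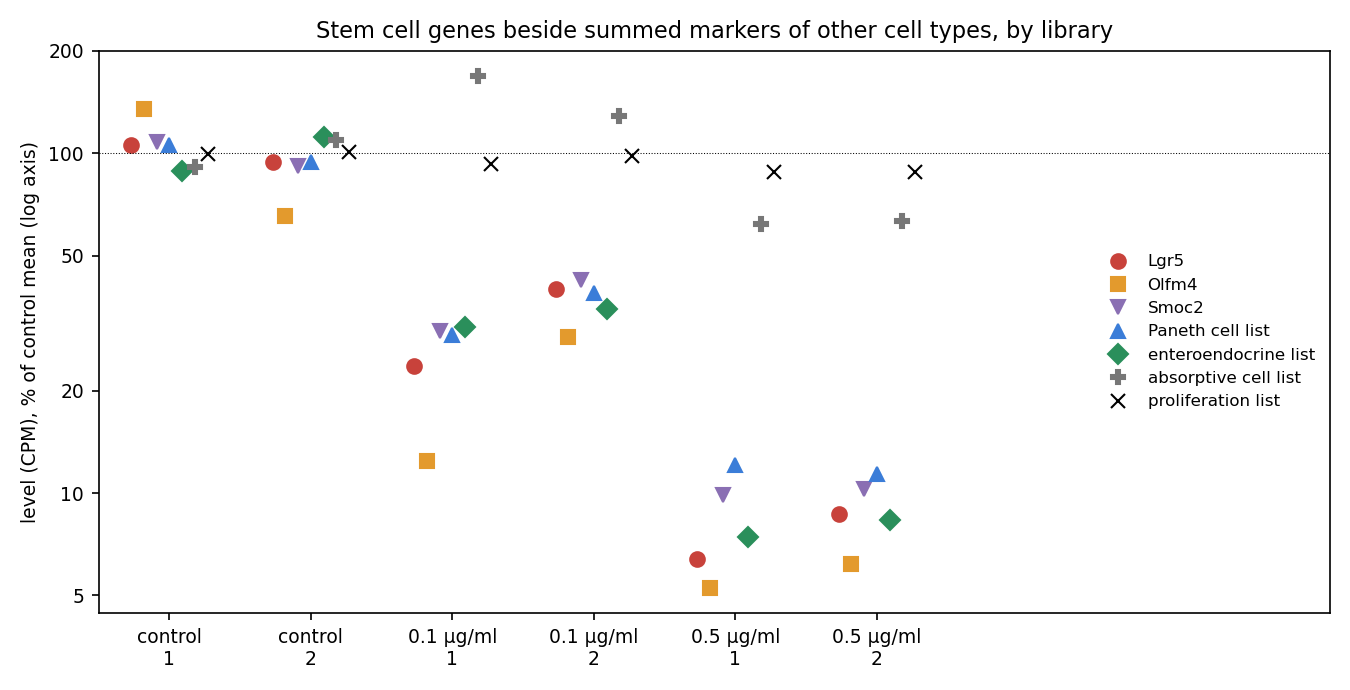
Level of Lgr5, Olfm4 and Smoc2 and summed levels of the Paneth, enteroendocrine, absorptive and proliferation lists in each library, as percent of the control mean in CPM (log axis). The 3 stem cell genes and the Paneth and enteroendocrine lists lie at or under 42.4% at the low dose and at or under 12.1% at the high dose, while the proliferation list stays above 87%.

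Genes whose pattern over the 6 libraries came nearest to Lgr5 were found by the root mean square difference of centred log2 CPM. The search covered 10139 genes with a symbol and a mean of at least 5 CPM, and symbols of the Gm and Rik series were left out. The nearest genes were Clca3b at 0.13, Fgfr2 and Cfi at 0.19, Smoc2 at 0.22 and Vwa5b2 at 0.23 on the log2 scale. Clca3b went from 449 CPM in control to 122 and 32.1 CPM, and Fgfr2, a receptor of fibroblast growth factors, from 13.5 to 3.97 and 1.20 CPM. The 5 genes nearest to Ascl2 were Zfp141, Tpst2, Sfr1, Slc1a4 and Dnajc21, with differences from 0.04 to 0.05, and each stood at like levels in control and at the low dose. Tpst2, for example, stood at 18.4, 17.6 and 31.8 CPM in the order of dose.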

How the data were processed

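Poly-A selected RNA went into directional MGI libraries with paired reads of 100 bases, per the labels' protocols. RSEM 1.3.3, STAR 2.7.3a, Trim Galore and FastQC are named in the submitters' processing notes, as are the builds GRCm39 and mm10, with no roles; the strand setting of counting is not stated there. The authors deposited RSEM expected counts, estimates that may be fractional, and TPM, which the authors scaled per library to a common total and which carry no depth.

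Of 55416 identifiers 52083 had a symbol in GENCODE M21. The count table was rounded to whole numbers, filtered with filterByExpr by group and scaled by TMM, and all 6 libraries entered one quasi-likelihood fit in edgeR 4.0.16 (R 4.3.3) with a mean per group and no covariate, leaving 3 residual degrees of freedom. Standard errors came from the F statistic. A two-sided exact test of 2 against 2 libraries cannot go below p = 0.333. Alternatives used DESeq2 1.42.0, limma 3.58.1 on log2(TPM + 1) and log2(TPM + 0.1) over genes with a mean of at least 1 TPM or over every gene above 0, other scalings, filters and fits, and each library left out. In simulated counts for 0.5 µg/ml against control over 15744 genes, the test found 84% of 50 genes with a log2 change of 0.5, 92% at 1 and 100% at 2 and 3, and 11 of 199 calls were false. The simulated spread followed the trend over all genes, and far fewer genes were changed than were called in the data. These rates therefore do not describe genes of wide spread such as Olfm4 (edgeR coefficient of variation between replicates 0.256, median of all tested genes 0.0579). Replicates differed by more than sampling noise (chi-square per degree of freedom 7.57 to 8.60).

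Of the other lists, the genes named were the 2 largest rises and the 2 largest falls that passed at 0.5 µg/ml, had non-overlapping replicates and reached 5 CPM in either group, apart from those marked as named after their values were seen and the markers of non-epithelial cells. The 10 genes and all lists were chosen with earlier results of these data known.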

Additional observations from a re-analysis of the deposited data

How the results depend on the processing

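Over 15 alternatives the 10 genes kept their direction and their side of the threshold in 427 of 444 values. The direction changed in 4 values, all of Znrf3 between the doses, which was not called: -0.0172 with upper quartile scaling, -0.0272 with limma on log2(TPM + 1) with and without the filter and -0.0320 with log2(TPM + 0.1), against 0.03. The other 13 values missed the threshold in the same direction, and those of low against control and between the doses are given beside each gene. With limma on log2(TPM + 1) over every gene, 2 of the 10 genes were lower at 0.1 µg/ml and 4 between the doses, against 7 and 7, and the cause was not tested. All alternatives reuse the same libraries, so the 427 values are not independent support. Leaving out a library of the third group left both compared groups whole. With every gene of at least 1 count kept, the SE of Olfm4 at 0.1 µg/ml was 0.0575, against 0.381 in the main fit. That fit thus did not carry the wide spread of Olfm4.

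Leaving out each library gave 5 to 7 genes lower at 0.1 µg/ml, 8 at 0.5 µg/ml and 7 between the doses, with 1 higher in each. Over all genes it gave 1448 to 2291 lower and 2352 to 2963 higher at 0.1 µg/ml, against 2350 and 3531, the lowest values being those without replicate 1 at 0.1 µg/ml. At 0.5 µg/ml it gave 5033 to 5870 lower and 5047 to 5937 higher, and between the doses 3976 to 5105 and 4143 to 5413.

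With limma on log2(TPM + 1), log2(TPM + 0.1) and log2(TPM + 1) over every gene, 1461, 1412 and 1036 genes were lower and 1851, 1889 and 1484 higher at 0.1 µg/ml. With the first and second of these, 3565 and 3563 genes were higher at 0.5 µg/ml, against 5839, and 4883 and 4885 lower, against 5626, so that 42.2% of the calls were higher with either, against 50.9%. Between the doses 2919 and 2894 were higher, against 5060, and 4121 and 4133 lower, against 4942, with 41.5% and 41.2% of the calls higher, against 50.6%. Tnfrsf19, under the TPM minimum, has no value there.

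Same-numbered replicates did not deviate together in every pair of groups (r across 12991 genes -0.06 for control and low dose, 0.22 for control and high dose and 0.12 for the doses). These values cannot tell whether such replicates shared a culture or a batch, which is not stated. With the replicate block 7, 8 and 7 of the 10 genes were lower and 1 higher in each comparison, with 2048 genes lower and 3217 higher at 0.1 µg/ml. Precision is limited by 2 libraries a group and, for Tnfrsf19 at 49 to 127 counts, also by depth.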
